A study of Mus musculus with 8 samples.

Results

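The Hedgehog pathway genes described here are 9 genes chosen by symbol from the 23235 symbols of the deposited table: the receptor gene Ptch1, the decoy receptor gene Hhip, the co-receptor genes Boc, Cdon and Gas1, the signal transducer gene Smo, and the transcription factor genes Gli1, Gli2 and Gli3. Each is present as 1 RefSeq transcript. They were measured by RNA sequencing in 8 libraries of cultured C57BL/6 mouse embryonic fibroblasts, the cells that form connective tissue. The libraries form 4 groups of 2. TAFH-deleted rescue clones 1 and 2 are Taf4 -/- cells that stably express human TAF4 without its TAFH domain (Tg: hTAF4 Δ), and full-length rescue clones 1 and 2 are Taf4 -/- cells that stably express complete human TAF4 (Tg: hTAF4 wt). Knockout libraries come from Taf4 -/- cells, and control libraries from cells with 1 floxed and 1 null allele (Taf4 loxp/-), which another label field calls wild type. The 3 other groups thus share the Taf4 -/- background, and the control itself carries a null allele. TAF4 belongs to TFIID, the complex that helps place RNA polymerase II at promoters, and the series title ties it to E proteins, a class of basic helix-loop-helix transcription factors.

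Hedgehog ligands are secreted proteins that bind Ptch1, and without ligand Ptch1 holds Smo inactive. Boc, Cdon and Gas1 are surface proteins that help the ligand bind, and Hhip sequesters it. Active Smo, which acts in the primary cilium, shifts Gli2 and Gli3 from repressor to activator forms. Gli2 is the main activator and Gli3 the main repressor in mouse embryos, while Gli1, Ptch1 and Hhip are themselves targets whose RNA is commonly read as a measure of pathway activity. Fibroblasts grown from embryos are ciliated and are a standard cell type for studying this pathway.

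Values are FPKM, the number of fragments divided by transcript length and library size. Steps between low FPKM values gave implied totals of 14300000 to 17300000 fragments a library. The 2 control libraries differed by less than the sampling noise, with a chi-square per gene of 0.737 ± 0.0345 (SE), and so did the 2 knockout libraries, at 0.615 ± 0.034 (SE). Each of these pairs was therefore counted as 1 sample, and its values carry no replicate error. The measure is a mean over genes of few fragments, 807 for control and 704 for knockout, and single genes can differ by more. The same measure was 2.45 ± 0.105 (SE) between the TAFH-deleted clones and 1.57 ± 0.0653 (SE) between the full-length clones. No label states separate cultures for the libraries or an independent origin for the clones, so tests measure only the spread between these samples. Taf4a, the mouse Taf4 gene, was listed at 14.7 and 19.2 FPKM in TAFH-deleted clones, 14.5 and 15.0 in full-length clones, 12.5 and 12.4 in knockout libraries and 11.1 and 11.5 in control libraries. Which exons were deleted is not stated and transgene reads may align there, so the level is no test of the genotype labels. Of 8 fibroblast markers, 7 were above 1 FPKM in every library and Thy1 stayed under 1 FPKM. The marker sets for epithelial, endothelial and skeletal muscle cells had no gene reaching 1 FPKM, and Sox10, a neural crest marker, was at 0 in all 8. Of 3 blood cell markers, Ptprc and Itgam were at or near 0, while Cd68 was at 1.05 and 3.45 FPKM in TAFH-deleted clones and 2.02 to 3.38 in the other 6 libraries. Of the neural markers, Tubb3 was at 1.52 and 2.6 FPKM in TAFH-deleted clones, 10.8 and 10.2 in full-length clones, 7.42 and 7.91 in knockout libraries and 14.5 and 13.4 in control libraries. Nes was at 3.83 and 6.26 FPKM in TAFH-deleted clones, 0.584 and 0.579 in full-length clones, 3.53 and 3.96 in knockout libraries and 8.03 and 7.51 in control libraries. The 3 neural markers summed to 5.36 to 8.86 FPKM in TAFH-deleted clones, 10.8 to 11.3 in full-length clones, 11.0 to 11.9 in knockout libraries and 20.9 to 22.5 in control libraries, and the part of blood and neural markers in the results was not tested. In bulk RNA, fewer cells of a type and less RNA per cell cannot be told apart.

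The receptor, transducer and repressor genes were abundant in all groups, while Gli1 was near 1 FPKM and Hhip close to 0. Among the group means, Gas1, Smo and Cdon were the highest, at 35.3 to 70.2 FPKM. Ptch1, Boc and Gli3 lay between 5.32 and 23.4 FPKM, and Gli2 between 1.44 and 5.73. Neighbours in this order were not always separated: in control cells Boc at 17.6 and 18.1 FPKM overlapped Ptch1 at 17.3 and 17.6.

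**Figure D1:**
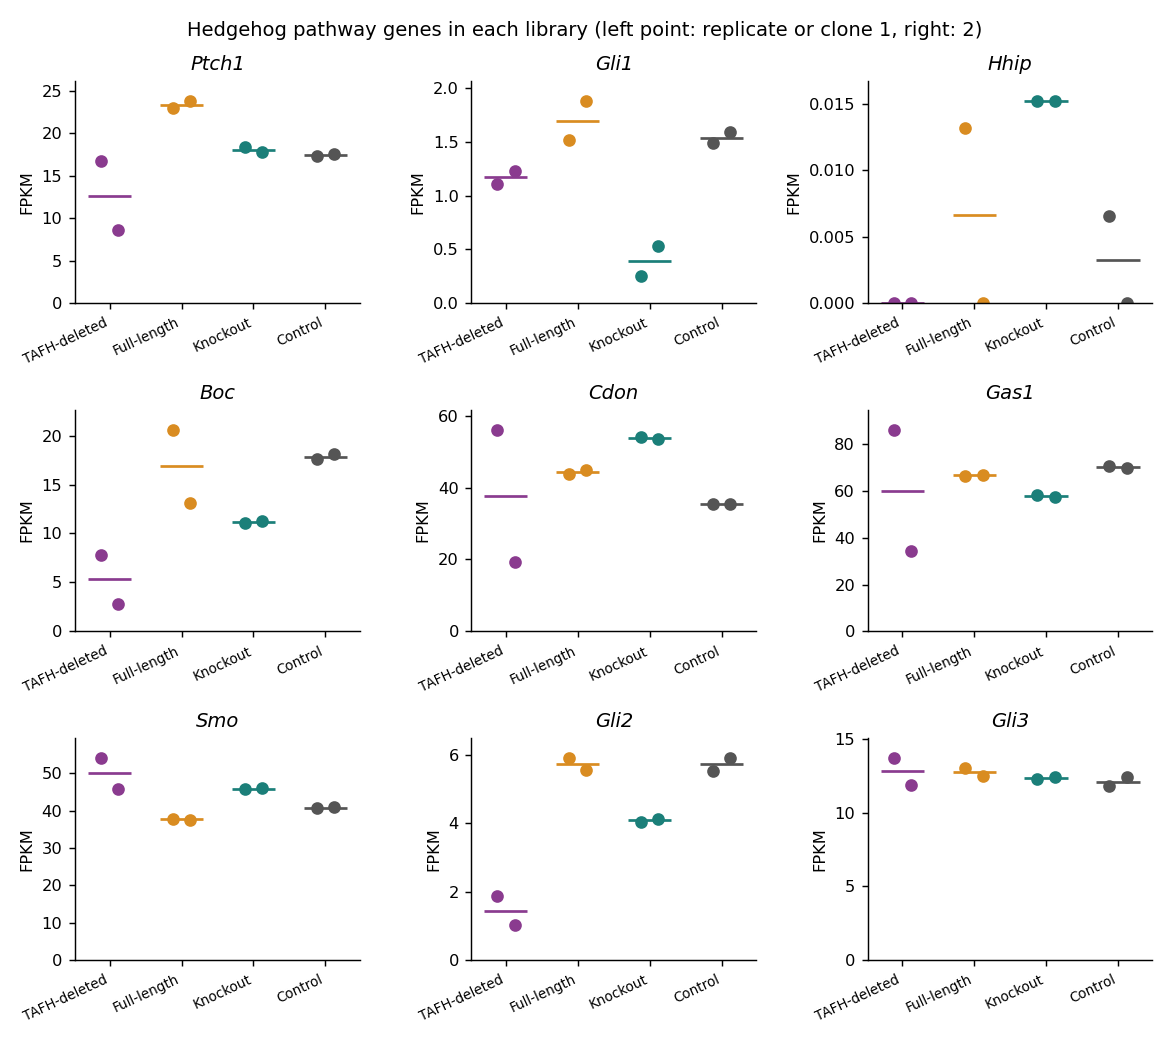
FPKM of the 9 Hedgehog pathway genes in each library, 1 panel a gene with its own axis from 0. Points are libraries and lines are group means. Knockout libraries are the lowest for Gli1 at 0.254 and 0.527 FPKM, TAFH-deleted clones are the lowest for Gli2 and Boc, and the 2 TAFH-deleted clones lie apart for Cdon and Gas1.

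Ptch1 (chromosome 13, 63612841 to 63666828, mm9), the ligand receptor and a target of the pathway, stood at 16.7 and 8.55 FPKM in TAFH-deleted clones, 23.0 and 23.8 in full-length clones, 18.4 and 17.8 in knockout libraries and 17.3 and 17.6 in control libraries. Full-length clones held the most and TAFH-deleted clones the least, while knockout and control stood 1.04-fold apart. Hhip (chromosome 8, 82489750 to 82581907), the decoy receptor, was listed at 0 in both TAFH-deleted clones, at 0.0132 and 0 FPKM in full-length clones, at 0.0152 in each knockout library and at 0.00653 and 0 in control libraries. These values correspond to at most 2 fragments in a library, under the 3 fragments that a count of 0 still allows, so no difference in Hhip was detectable at this depth.

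Gas1 (chromosome 13, 60275766 to 60278896), a lipid-anchored co-receptor, was at 86.1 and 34.1 FPKM in TAFH-deleted clones, 66.3 and 66.8 in full-length clones, 58.4 and 57.3 in knockout libraries and 70.6 and 69.9 in control libraries. One TAFH-deleted clone lay above all other libraries and its partner below them. Cdon (chromosome 9, 35259661 to 35315237), an immunoglobulin-family co-receptor, showed the same split, with 56.1 and 19.3 FPKM in TAFH-deleted clones, 43.8 and 44.9 in full-length clones, 54.0 and 53.4 in knockout libraries and 35.3 in each control library. Boc (chromosome 16, locus 44485158 to 44558983), the closest relative of Cdon, was at 7.85 and 2.79 FPKM in TAFH-deleted clones, 20.6 and 13.1 in full-length clones, 11.1 and 11.3 in knockout libraries and 17.6 and 18.1 in control libraries. For Boc both TAFH-deleted clones were below every other library. The locus given for Boc also holds Mir3081, an 84-base transcript listed at 77.0 FPKM in full-length clone 1 and at 0 in the other 7 libraries. It is shorter than the 204.2 bases taken from lengths here, so its fragments could not be recovered and its FPKM is not a usable level. Its part in the Boc values was not tested.

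Smo (chromosome 6, 29685497 to 29711366), the membrane protein that Ptch1 restrains, had a narrow range: 54.1 and 45.9 FPKM in TAFH-deleted clones, 37.7 and 37.6 in full-length clones, 45.7 and 46.1 in knockout libraries and 40.7 and 41.0 in control libraries. Full-length clones were the lowest for Smo and TAFH-deleted clone 1 the highest.

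Gli2 (chromosome 1, 120730638 to 120950196) was at 1.86 and 1.01 FPKM in TAFH-deleted clones, 5.90 and 5.56 in full-length clones, 4.05 and 4.12 in knockout libraries and 5.54 and 5.91 in control libraries. Full-length clones overlapped the control, knockout libraries were below both, and TAFH-deleted clones were below the knockout. Gli3 (chromosome 13, 15555556 to 15821858) stayed between 11.8 and 13.7 FPKM: 13.7 and 11.9 in TAFH-deleted clones, 13.0 and 12.5 in full-length clones, 12.3 and 12.4 in knockout libraries and 11.8 and 12.4 in control libraries. TAFH-deleted clones overlapped every other group, and full-length clones lay just above knockout and control. That order is within counting error, since the 95% Poisson interval of full-length clone 2 was 11.9 to 13.1 FPKM. Gli1 (chromosome 10, locus 126760783 to 126778635) was at 1.11 and 1.23 FPKM in TAFH-deleted clones, 1.52 and 1.88 in full-length clones, 0.254 and 0.527 in knockout libraries and 1.49 and 1.59 in control libraries. Knockout libraries were thus set apart from all 6 others. The Gli1 levels rest on 55 and 69 fragments in TAFH-deleted clones, 90 and 110 in full-length clones, 13 and 27 in knockout libraries and 89 and 95 in control libraries. Exact 95% Poisson intervals, which cover counting error only, were 0.135 to 0.434 and 0.347 to 0.767 FPKM in the knockout libraries and 1.20 to 1.84 and 1.28 to 1.94 FPKM in the control libraries. The locus given for Gli1 also holds Arhgap9, listed at 0.0872 and 0.0383 FPKM in TAFH-deleted clones, 0.292 and 0.294 in full-length clones, 0.042 and 0 in knockout libraries and 0.18 and 0.252 in control libraries.

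Within the Gli family, the TAFH-deleted clones had the smallest share of Gli2 and the knockout libraries the smallest share of Gli1; these shares were described and not tested. Gli2 made up 11.2% and 7.18% of the summed FPKM of the 3 Gli genes in TAFH-deleted clones, 28.9% and 27.9% in full-length clones, 24.4% and 24.2% in knockout libraries and 29.4% and 29.7% in control libraries. Gli3 made up 82.2% and 84.1% in TAFH-deleted clones, 63.7% and 62.7% in full-length clones, 74.1% and 72.7% in knockout libraries and 62.7% and 62.3% in control libraries. The share of Gli1 was 1.53% and 3.10% in knockout libraries and between 6.67% and 9.44% elsewhere. The mean level of Gli3 was 12.8 FPKM in TAFH-deleted clones, 12.8 in full-length clones, 12.3 in knockout and 12.1 in control. Among the co-receptors, Boc held 5.23% and 4.96% of their summed FPKM in TAFH-deleted clones, 15.8% and 10.5% in full-length clones, 9.0% and 9.29% in knockout libraries and 14.3% and 14.7% in control libraries. The 3 co-receptors summed to 150 and 56.2 FPKM in the TAFH-deleted clones, and to between 122 and 131 FPKM in the other 6 libraries.

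**Figure D2:**
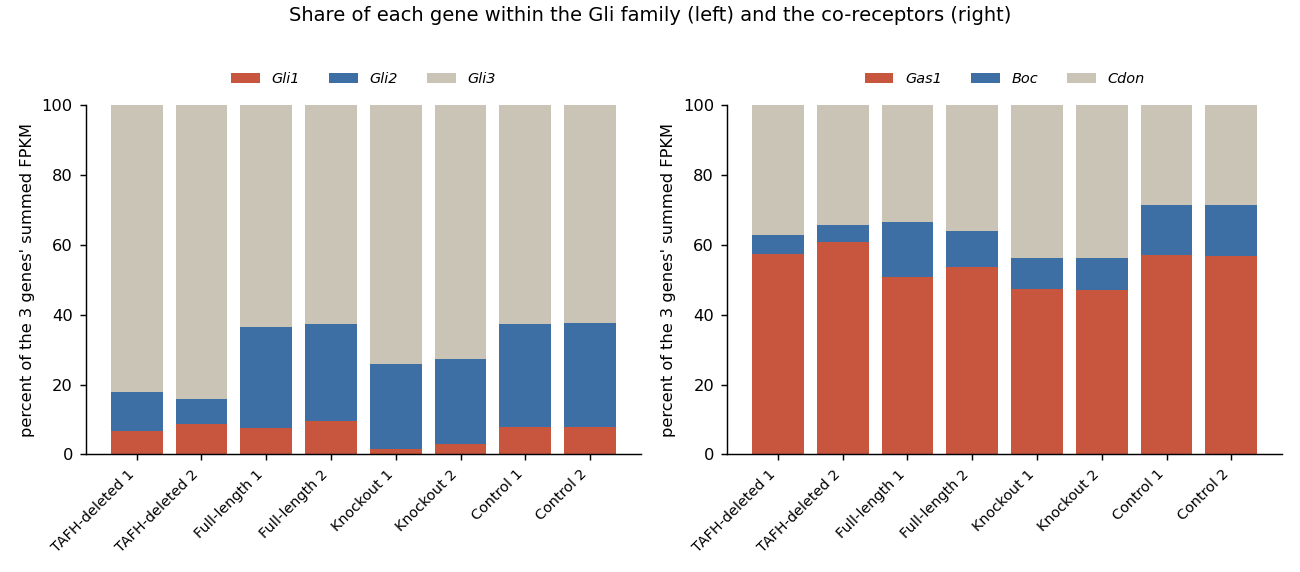
Share of each gene, in percent of the 3 genes' summed FPKM, in every library for the Gli family (left) and the co-receptors (right). Each bar is 1 library. The Gli2 share is smallest in the TAFH-deleted clones, at 11.2% and 7.18%, and the Boc share there is 5.23% and 4.96%.

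Promoter sequence is given for Gli2 and Gli3, related factors of which Gli2 had a range of 1.78 over the samples on the log2(FPKM + 1) scale and Gli3 one of 0.19, and for Ptch1, the abundant target gene. Each run is the 250 bases before the transcription start, 5′ to 3′ on the gene's strand, from RefSeq on GRCm38.p6, a build used for these sequences only. Capitals mark a match to the E-box CAGNTG, the kind of element that E proteins bind.
Gli2, minus strand of chr1:119053620-119053869: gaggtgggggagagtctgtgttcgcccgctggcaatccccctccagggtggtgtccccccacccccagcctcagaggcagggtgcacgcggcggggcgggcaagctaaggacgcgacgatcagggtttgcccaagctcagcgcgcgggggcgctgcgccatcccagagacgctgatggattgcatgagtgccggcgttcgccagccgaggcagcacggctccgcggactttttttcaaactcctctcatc
Gli3, plus strand of chr13:15463473-15463722: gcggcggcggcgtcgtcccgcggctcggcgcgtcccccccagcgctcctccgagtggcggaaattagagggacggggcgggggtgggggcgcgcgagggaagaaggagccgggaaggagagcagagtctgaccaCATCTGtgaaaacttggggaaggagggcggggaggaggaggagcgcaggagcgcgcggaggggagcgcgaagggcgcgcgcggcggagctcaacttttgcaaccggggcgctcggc
Ptch1, minus strand of chr13:63565736-63565985: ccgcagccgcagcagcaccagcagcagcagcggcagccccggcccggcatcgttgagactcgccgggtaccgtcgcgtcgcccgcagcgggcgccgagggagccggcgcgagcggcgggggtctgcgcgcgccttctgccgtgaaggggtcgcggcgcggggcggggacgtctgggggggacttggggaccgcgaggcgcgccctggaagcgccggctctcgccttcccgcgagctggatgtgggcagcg
Windows from 250 bases before to 50 after the start were matched for 7 of the 9 genes, with no entry for Gli1 and Boc, and searched on both strands. The E-box was in 1 of the 7, the Gli3 window (CATCTG on the strand shown, starting at position -116 from the start), against 51.4% of 32851 such windows. The GLI motif GACCACCCA was in 0 of the 7 and in 0.253% of all windows. The windows of 300 bases held 67.3% G or C for Gli2, 71.0% for Gli3 and 76.3% for Ptch1, with a median of 52.7% over all windows. Absence of a match says only that these letters are not in this window.

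Knockout was set against control for the effect of losing Taf4. The largest difference among the Hedgehog genes was that of Gli1, at a mean of 0.391 FPKM in knockout and 1.54 FPKM in control, 3.94-fold lower. On the log2(FPKM + 1) scale used for the test, which understates changes of low genes, the difference was -0.88 ± 0.23 (SE). Boc was 1.59-fold lower in knockout (log2 difference -0.63 ± 0.70, SE), Gli2 1.40-fold lower (-0.40 ± 0.35) and Gas1 1.21-fold lower (-0.28 ± 0.65). Cdon was 1.52-fold higher (0.59 ± 0.74) and Smo 1.12-fold higher (0.16 ± 0.15). Ptch1, with a log2 difference of 0.05 (95% interval -1.22 to 1.32), and Gli3, at 0.02 (-0.56 to 0.61), had estimates near 0, with intervals that do not show equal levels.

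None of the 8 genes that could be tested passed limma with Benjamini-Hochberg adjustment at 0.05 when knockout was set against control, and 0 of 12025 genes did (0.0%). Gli1, with an adjusted p of 0.439, was the only one of them at an unadjusted p under 0.05, against 9.21% of all genes. A log2 difference of at least 1 was reached by none of the 8, with a background of 5.75% lower and 0.815% higher. Hhip did not pass the filter on low values, and Gli1 passed through the other 3 groups, since both knockout libraries are under 1 FPKM. Each side is here 1 sample whose spread is assumed to be that of the rescue clones. Without TAFH-deleted clone 1 or without clone 2, which are not in this comparison, 3 genes passed, Gli1 and Gas1 lower and Cdon higher, while 22.5% and 22.1% of all genes passed in those fits. The authors' deposited table, which holds Cuffdiff p-values and q-values, calls 6 of 8 Hedgehog genes here, against 53.8% of the transcripts it tested. Its q-value was 1.6e-07 for Gli1 and 1.05e-06 for Gli2, while Ptch1 at 0.393 and Gli3 at 0.61 were not called. These q-values rest on the same control and knockout pairs, each of which differed by less than the sampling noise on average over genes of few fragments. For Gli1 the knockout libraries held 13 and 27 fragments, so that average need not hold for it. The knockout pair is also part of the other deposited comparisons.

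Full-length rescue was set against knockout for the effect of complete human TAF4. Gli1 was at 1.70 ± 0.252 FPKM (SD, n = 2) in full-length clones and 0.391 FPKM in knockout, 4.36-fold higher, with a log2 difference of 0.96 ± 0.20 (SE). Boc was at 16.9 ± 5.30 FPKM in full-length clones and 11.2 in knockout. Gli2 was at 5.73 ± 0.243 and 4.09 FPKM, 1.40-fold higher, and Ptch1 at 23.4 ± 0.565 and 18.1 FPKM, 1.29-fold higher. Cdon was at 44.3 ± 0.794 FPKM in full-length clones and 53.7 in knockout, and Smo at 37.7 ± 0.075 and 45.9. For Gli1 and Gli2 the full-length clones lay close to the control means of 1.54 and 5.72 FPKM, whereas Ptch1 was above its control mean of 17.5 FPKM.

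No Hedgehog gene passed limma in full-length rescue against knockout, nor did any of the 12025 genes (0.0%). A log2 difference of at least 1 was reached by none of the 8, with 2.85% of all genes higher and 1.1% lower. Gli1, with an adjusted p of 0.262, was the only one at an unadjusted p under 0.05, against 13.3% of all genes. With only the libraries of these groups in the fit, 5 passed, with Gli1, Gas1 and Ptch1 higher and Cdon and Smo lower, against 26.3% of all genes. Without TAFH-deleted clone 1, 4 passed, against 26.7% of all genes, and without clone 2, 5, against 26.7%. The authors' deposited table calls 6 of the 7 Hedgehog genes it tested in this comparison, against 25.8% of transcripts, with Gli3 the one not called and Boc left untested.

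TAFH-deleted rescue was set against knockout for the effect of TAF4 lacking the TAFH domain. Gli1 was at 1.17 ± 0.0807 FPKM (SD, n = 2) in TAFH-deleted clones and 0.391 in knockout, 3.0-fold higher, with a log2 difference of 0.65 ± 0.20 (SE). Gli2 was at 1.44 ± 0.602 and 4.09 FPKM, 2.84-fold lower, with a log2 difference of -1.08 ± 0.30. Boc was at 5.32 ± 3.58 and 11.2 FPKM, a log2 difference of -1.08 ± 0.61, and Ptch1 at 12.6 ± 5.74 and 18.1 FPKM. For Gli1 both clones lay above the knockout libraries, and for Gli2, Boc and Ptch1 both lay below them. The share of all genes with both clones outside the knockout libraries was not counted. Smo overlapped, at 54.1 and 45.9 FPKM in TAFH-deleted clones and 45.7 and 46.1 in knockout libraries.

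No Hedgehog gene passed limma in TAFH-deleted rescue against knockout, and 0 of 12025 genes did (0.0%). Gli1 and Gli2, with adjusted p of 0.739 and 0.698, were at an unadjusted p under 0.05, against 6.57% of all genes. Boc and Gli2 were at least 2-fold lower on the log2(FPKM + 1) scale, against 2.92% of all genes, while none was 2-fold higher, against 0.715%. Under quantile normalization their log2 differences were -0.98 for Boc and -0.91 for Gli2, and without clone 2 they were -0.47 and -0.83. Without clone 1, 5 genes passed, all lower (Boc, Cdon, Gas1, Gli2 and Ptch1), against 33.4% of all genes. Without clone 2 only Gas1 did, higher by 0.56 on the log2 scale, against 3.8% of all genes. The authors' deposited table calls 0 of the 6 Hedgehog genes it tested here, against 0.957% of transcripts.

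The direct comparison of TAFH-deleted with full-length rescue, 2 clones against 2, shows how the forms differ, although the form and the origin of the clones cannot be told apart. Gli2 was at 1.44 ± 0.602 FPKM in TAFH-deleted clones and 5.73 ± 0.243 FPKM in full-length clones (SD, n = 2 each), 3.98-fold lower, with a log2 difference of -1.49 ± 0.24 (SE). Boc was at 5.32 ± 3.58 and 16.9 ± 5.30 FPKM, 3.18-fold lower, with a log2 difference of -1.60 ± 0.50. Ptch1 was at 12.6 ± 5.74 and 23.4 ± 0.565 FPKM, 1.86-fold lower (-0.91 ± 0.33), and Smo at 54.1 and 45.9 FPKM against 37.7 and 37.6 FPKM, 1.33-fold higher (0.39 ± 0.11). Gli1 was at 1.17 ± 0.0807 and 1.70 ± 0.252 FPKM, with a log2 difference of -0.31 ± 0.16 as deposited and 0.07 under quantile normalization. Gli3 was at 12.8 ± 1.32 and 12.8 ± 0.374 FPKM, with a 95% interval of -0.41 to 0.42 for its log2 difference.

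None of the 8 genes passed limma in TAFH-deleted against full-length rescue, where 2.62% of all genes did. Gli2 came nearest, with an adjusted p of 0.0658, followed by Smo at 0.112, Boc at 0.138 and Ptch1 at 0.171. These 4 were at an unadjusted p under 0.05, as were 28.8% of all genes. Clones of the 2 forms did not overlap in 4 genes that were lower in TAFH-deleted clones (Ptch1, Gli1, Gli2 and Boc), against 26.4% of all genes, and in 1 that was higher (Smo), against 37.1%. Boc and Gli2 were at least 2-fold lower, against 5.94% of all genes, and none 2-fold higher, against 2.6%. The count of 2-fold lower genes was 4 without TAFH-deleted clone 1 and 1 (Gli2) without clone 2. The share of all genes at least 2-fold lower without either clone was not counted. Without TAFH-deleted clone 1 or without clone 2, 6 of the 8 genes passed, with Gli2, Boc and Ptch1 lower and Smo higher each time, but 55.9% and 40.0% of all genes passed in those fits. Ptch1, Boc and Gli2 were also the 3 of 8 genes with both full-length clones above and both TAFH-deleted clones below the knockout libraries, against 8.63% of all genes. For Ptch1, TAFH-deleted clone 1 was close to knockout, at 16.7 FPKM against 18.4 and 17.8. The signs of Cdon and Gas1 depended on the clone left out. Their log2 differences were -1.16 and -0.94 without TAFH-deleted clone 1, and 0.33 and 0.37 without clone 2.

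**Figure D3:**
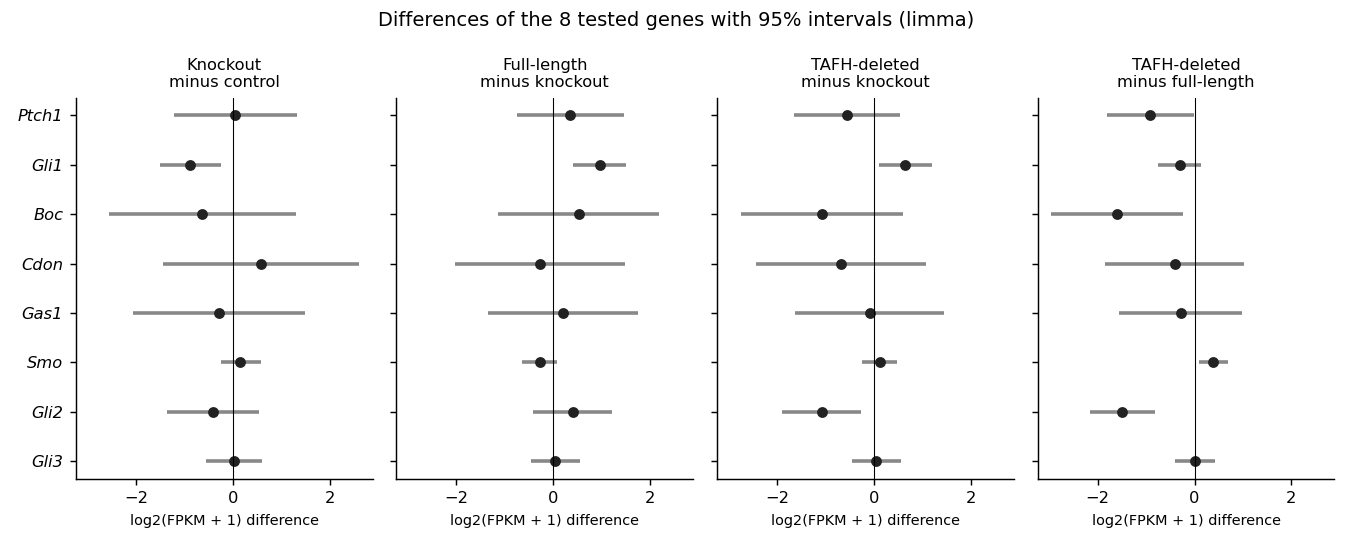
Log2(FPKM + 1) differences of the 8 tested Hedgehog pathway genes in 4 comparisons, with points for the limma estimate and lines for its 95% interval. Intervals that leave out 0 are those of Gli1 in the 3 comparisons that involve the knockout, Gli2 against knockout and against full-length rescue, and Boc, Ptch1 and Smo between the rescue forms. None had an adjusted p under 0.05.

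The TAFH-deleted clones also differed between themselves. Clone 2 was at least 2-fold below clone 1 for Cdon (log2 difference -1.49), Gas1 (-1.31) and Boc (-1.23), against 3.59% of all genes, and Ptch1 was at -0.89. None was 2-fold above, against 4.08%. Gli1 and Gli3 differed by 0.08 and -0.19 between the same clones. Between the full-length clones the widest difference was that of Boc, at -0.61, and none of the 8 reached 2-fold, against 0.233% of all genes lower and 0.0915% higher. Some of the 8 fibroblast markers moved with some of these values, and others did not. Pdgfra, a growth factor receptor of fibroblasts, was at 11.5 and 8.81 FPKM in TAFH-deleted clones, 52.9 and 56.7 in full-length clones, 17.4 and 17.3 in knockout libraries and 51.3 and 52.2 in control libraries, low where Gli2 and Boc were low. Pdgfrb, at 57.6 and 34.5 FPKM, and the collagen gene Col3a1, at 97.4 and 68.7, were lower in TAFH-deleted clone 2 than in clone 1. Unlike Gas1 and Cdon, both had the 2 TAFH-deleted clones below every other library. Col1a1, Col1a2, Vim and Fn1 were higher in knockout than in full-length or control libraries, and the knockout libraries also had smaller implied totals. Vim was at 146 and 130 FPKM in TAFH-deleted clones, 121 and 122 in full-length clones, 140 in each knockout library and 120 and 121 in control libraries. Fn1 was at 93.3 and 99.2 FPKM in TAFH-deleted clones, the higher value in clone 2. The sum over all 8 markers was 568 to 665 FPKM in TAFH-deleted clones, 696 to 703 in full-length clones, 697 to 698 in knockout libraries and 662 to 663 in control libraries. The part of these markers in the Hedgehog gene values was not tested. Fragments of Gas1 were equal in number to between 25.9% and 57.4% of its possible read starts, those of Cdon to 15.2% to 38.9% and those of Smo to 30.2% to 36.6%. No gene used to set the totals went above 97.4%, and whether a limit of 1 read per start compresses these 3 levels was not tested.

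**Figure D4:**
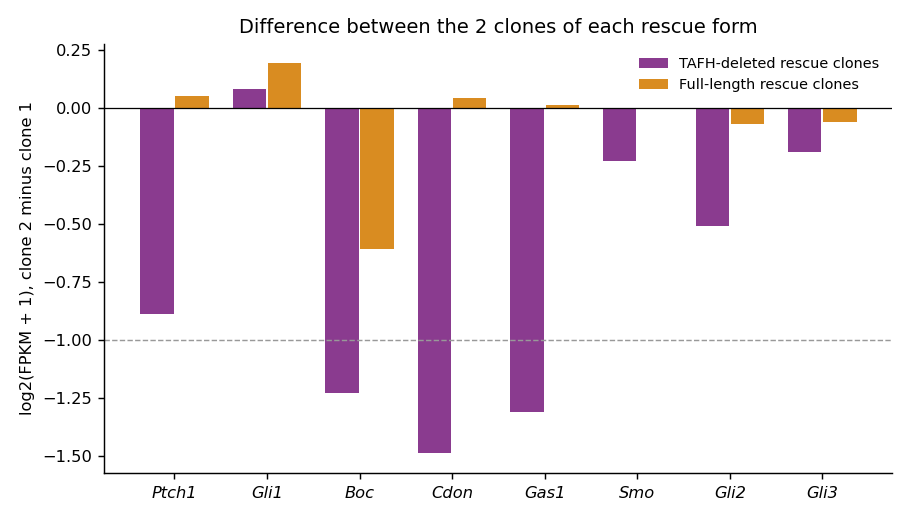
Difference in log2(FPKM + 1) between clone 2 and clone 1 of each rescue form for the 8 tested genes; the dashed line marks a 2-fold lower value. Cdon, Gas1 and Boc are below that line for the TAFH-deleted clones, and none is for the full-length clones.

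Of the 6 samples' patterns, that of Boc had the widest range, 2.52 on the log2(FPKM + 1) scale, and that of Gli3 the narrowest, 0.19. The genes whose pattern was most like that of Boc were Gm12824 (Pearson r = 0.9954), Csdc2 (0.9948), Reck, an inhibitor of matrix metalloproteinases (0.9913), and H2-K1, an MHC class I gene whose reads may be split with related copies (0.9883). These are descriptions over 6 samples that share their libraries, and 262 of 2924 genes with a range of at least 1 had an r of at least 0.9. Reck was at 16.2 and 10.5 FPKM in TAFH-deleted clones, 23.2 and 19.9 in full-length clones, 19.2 and 19.6 in knockout libraries and 21.2 and 21.3 in control libraries.

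The wider pathway was read from 5 lists that hold 62 genes of the table, 48 of which passed the filter. They were chosen with earlier results of these data known, so counts within the lists are descriptions. None of the 48 passed limma in any of the 4 comparisons. At an unadjusted p under 0.05 there were 7 in knockout against control, 6 in full-length rescue against knockout, 3 in TAFH-deleted rescue against knockout and 10 in TAFH-deleted against full-length rescue, where all genes stood at 9.21%, 13.3%, 6.57% and 28.8%. The median log2 difference of the 48 was -0.25, 0.19, 0.05 and -0.11 in these comparisons, with -0.03, -0.04, 0.03 and 0.06 over all genes.

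Ligand genes were barely listed. Shh was listed at 0 in 7 libraries and at 0.024 FPKM in the other, Ihh reached at most 0.0784 FPKM and Dhh at most 0.137. Disp1, which releases the ligand from cells, was listed at 0 in all 8. A low value in this table is not always a low transcript level, since Gapdh, a gene every cell uses, was listed between 0.0682 and 0.599 FPKM. Hhat, the enzyme that attaches palmitate to the ligands, was at 8.43 ± 2.66 FPKM in TAFH-deleted clones and 11.0 ± 1.21 in full-length clones (SD, n = 2 each), 7.05 in knockout and 9.2 in control. Scube3, a secreted protein of a family that helps ligand release, was at 13.8 and 2.31 FPKM in TAFH-deleted clones, against 17.9 and 12.2 in full-length clones. As with Gas1 and Cdon, TAFH-deleted clone 2 held the lowest value of all libraries.

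Of 5 tested surface proteins, Gpc6, a glypican (chromosome 14), was at 0 and 0.00943 FPKM in TAFH-deleted clones, 0.00897 and 0.00906 in full-length clones, 0.0103 and 0 in knockout libraries and 11.9 and 11.4 in control libraries. All 6 libraries of Taf4 -/- background were thus near 0, with either form of TAF4 or none. Gpr161, a cilium receptor that restrains the pathway, was at 6.02 ± 0.0961 FPKM in TAFH-deleted clones, 4.97 ± 0.0619 in full-length clones (SD, n = 2 each), 4.39 in knockout and 7.44 in control. Evc, a partner of Smo in the cilium, was at 27.2 ± 1.07 FPKM in TAFH-deleted clones, 19.2 ± 1.44 in full-length clones, 19.5 in knockout and 26.5 in control, and Gpc4 (chromosome X) at 73.3 ± 26.5, 74.8 ± 1.32, 95.4 and 70.7 FPKM in the same order.

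All 14 intracellular regulators were tested, and their medians lay between -0.03 and 0.05 in the 4 comparisons, with 7 above 0 and 7 below 0 in each. None reached 2-fold in any of them, where 1.1% to 5.94% of all genes were lower and 0.715% to 2.85% higher. Kif7, the kinesin that scaffolds Gli factors in the cilium, was at 6.17 ± 0.456 FPKM in TAFH-deleted clones, 9.19 ± 1.03 in full-length clones (SD, n = 2 each), 7.85 in knockout and 9.49 in control. Arrb2, a beta-arrestin that binds Smo, was at 16.3 ± 4.14 FPKM in TAFH-deleted clones and 9.54 ± 1.32 in full-length clones, and Spop, a ubiquitin ligase adaptor for Gli2 and Gli3, at 45.8 ± 7.75 and 37.6 ± 3.44 FPKM.

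Of 16 cilium genes, 14 had values below control in knockout (median log2 difference -0.29), and 14 had values above knockout in full-length rescue, with a median of 0.26; these comparisons share the knockout sample. In TAFH-deleted clones 11 of the 16 had values above knockout (median 0.11), and 11 had values below full-length clones (median -0.18). Over all genes the medians of these 4 comparisons were -0.03, -0.04, 0.03 and 0.06. The shares of all genes above and below 0 were not counted. Cc2d2a, a protein of the transition zone at the base of the cilium, was at 10.2 ± 1.57 FPKM in TAFH-deleted clones, 13.1 ± 1.87 in full-length clones (SD, n = 2 each), 7.22 in knockout and 13.6 in control. Bbs4, part of the complex that carries membrane proteins to the cilium, was at 7.33 ± 1.98, 10.8 ± 0.607, 5.70 and 7.5 FPKM in the same order. None of the 16 was at least 2-fold different in any of the 4 comparisons, where 1.1% to 5.94% of all genes were lower and 0.715% to 2.85% higher.

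Among 11 tested genes known as Hedgehog targets in other tissues, 10 had values below control in knockout. Their median log2 difference was -0.40, against -0.03 over all genes, whose share below 0 was not counted. Of the 11, 4 were at least 2-fold lower (Foxd1, Osr2, Foxc2 and Cdk6), against 5.75% of all genes. Foxd1, a forkhead factor, was at 2.86 and 5.62 FPKM in TAFH-deleted clones, 16.3 and 17.0 in full-length clones, 4.25 and 4.16 in knockout libraries and 16.1 and 15.6 in control libraries. Full-length clones lay just above the control in Foxd1, and TAFH-deleted clones lay on both sides of the knockout. The adjusted p of Foxd1 was 0.0678 between the rescue forms (limma). Osr2, a zinc finger factor, was at 18.4 and 3.35 FPKM in TAFH-deleted clones, 17.5 and 18.3 in full-length clones, 9.10 and 9.33 in knockout libraries and 25.4 and 25.1 in control libraries. Foxc2 was split the other way between TAFH-deleted clones, at 5.06 and 18.5 FPKM, with 9.34 and 8.21 in full-length clones, 5.76 and 6.19 in knockout libraries and 12.9 and 13.2 in control libraries.

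**Figure D5:**
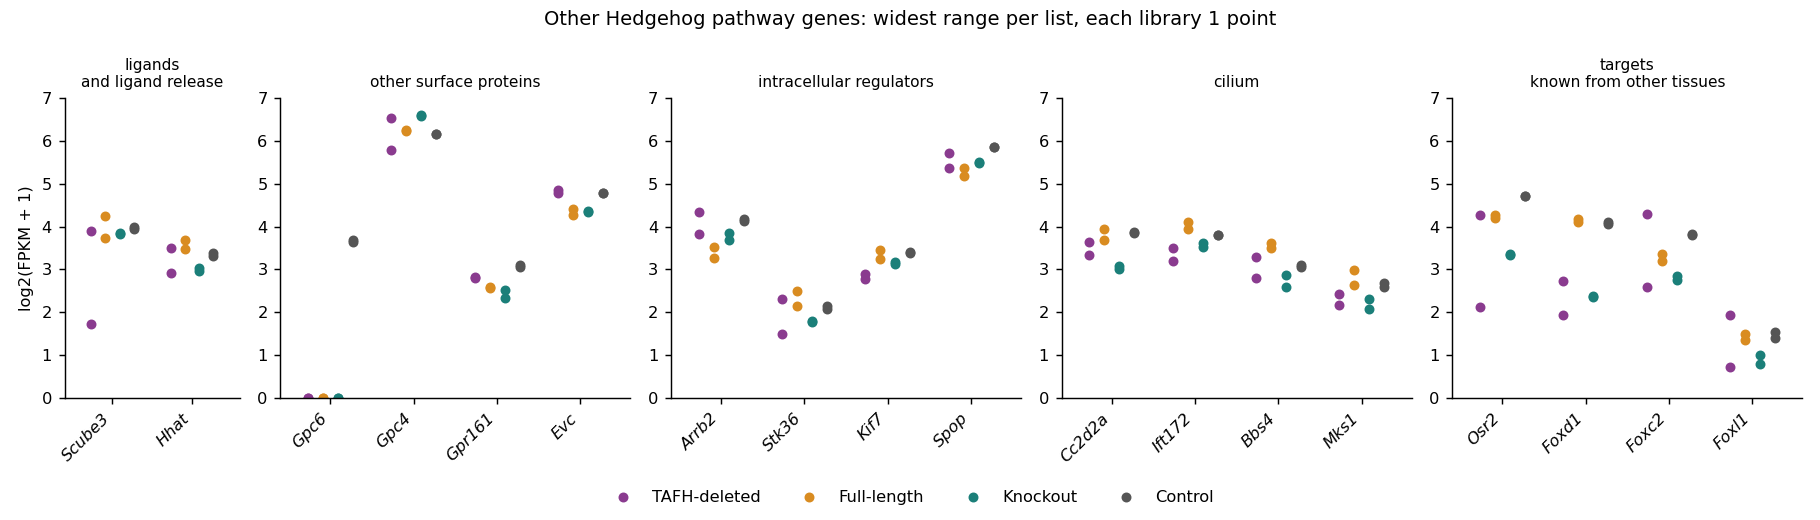
Log2(FPKM + 1) of up to 4 genes with the widest range in each of 5 lists of other Hedgehog pathway genes, with 1 point a library and the groups side by side. Gpc6 is near 0 in every library but those of the control, and Foxd1 is high in full-length clones and control libraries and lower in TAFH-deleted clones and knockout libraries.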

How the data were processed

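RNA of 8 libraries was sequenced. Per the submitters' processing notes, CASAVA 1.8, TopHat, Cufflinks and Cuffdiff were used on mm9, and options and the other versions are not given in the sources used here. The authors deposited FPKM for 30028 RefSeq transcripts, together with transcript lengths, group means that were not used, and p-values and q-values for 3 comparisons, which are quoted only as theirs. Positions count from 1. A locus in the file can span several genes.

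FPKM were summed per symbol and chromosome. Fragments were recovered from FPKM steps in 12350 genes of 1 transcript of at least 1000 bases, with 204.2 bases taken from the length; 100% of low values were whole within 0.05. Genes with at least 1 FPKM in 2 libraries and a longest transcript of at least 300 bases (12025) were tested with limma 3.58.1 (trend, R 4.3.3) on log2(FPKM + 1). The fit held 6 samples in 4 groups with 2 residual and 2.15 prior degrees of freedom. It was two-sided, with Benjamini-Hochberg adjustment over all genes and a threshold of 0.05. The fit was also run on simulated data drawn with its own estimates of the spread. That run cannot check whether control and knockout share the spread of the rescue clones. Members and lists were chosen with earlier results of these data known. Named genes are all 9 members, up to 4 genes a list with the widest range, and the 4 most like Boc; Cdk6, Gapdh, single cell type markers, the ligand genes and genes at shared loci were named after their values were seen. Alternatives covered pseudocount, filters, normalization, pairs, samples and left-out libraries.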

Additional observations from a re-analysis of the deposited data

Results flagged for a closer look

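Relative to the knockout libraries, both full-length clones lay above and both TAFH-deleted clones below for 3 of 8 Hedgehog genes, as for 8.63% of all genes. The log2 difference of TAFH-deleted minus full-length rescue was -0.91 for Ptch1, -1.60 for Boc and -1.49 for Gli2. The test of that difference is the comparison of the 2 forms itself, in which none of the 3 passed (limma adjusted p of 0.171, 0.138 and 0.0658), and the differences of both forms from knockout share the knockout sample. Without TAFH-deleted clone 1 the log2 difference between the forms was -1.35 for Ptch1 and -2.21 for Boc, and without clone 2 it was -0.47 and -0.98. Gli2 was also lower each time. The TAFH-deleted side is then 1 library, so such fits hold no spread between the TAFH-deleted clones.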

How the results depend on the processing

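The count of Hedgehog genes past the threshold was 0 in each comparison, and leaving out 1 library each in turn gave 0 to 3 in knockout against control, 0 to 5 in full-length rescue against knockout, 0 to 5 in TAFH-deleted rescue against knockout and 0 to 6 in TAFH-deleted against full-length rescue. Without 1 rescue clone, that form is left with 1 library, and the fit holds no spread between its clones. With all 8 libraries as separate samples the counts of Hedgehog genes were 1, 2, 2 and 4 in the same order. That fit, like the one with a replicate block, counts each control and knockout pair as 2 samples, although each pair differed on average by less than the sampling noise. Over all genes, the counts of 0, 0, 0 and 315 became 1089, 540 and 379 with no filter on low values (first 3 comparisons), 14, 21, 14 and 106 with short transcripts kept, and 2857, 2998, 1074 and 4566 with 8 separate samples. Leaving out 1 library gave 0 to 2708, 0 to 3216, 0 to 4011 and 0 to 6722, the last being 0 without either full-length clone and 6722 or 4804 without TAFH-deleted clone 1 or 2. The 315 became 142 with a pseudocount of 0.1 and 180 under quantile normalization. With only the libraries compared, full-length rescue against knockout gave 3167 genes and 5 Hedgehog genes; knockout against control could not be fitted so, for want of residual degrees of freedom.

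Same-numbered libraries showed no shared deviation (correlations of -0.0776 to 0.0571), so they share only a number. With that replicate block over all 8 libraries, 1, 1, 1 and 3 Hedgehog genes and 2019, 2232, 461 and 3921 genes passed in the 4 comparisons.

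With a pseudocount of 0.1, Gli1 was at least 2-fold lower in knockout against control (1 gene in place of 0), and at least 2-fold higher in full-length and in TAFH-deleted rescue against knockout (1 in place of 0 in each). Leaving out 1 library gave 0 to 1 for the first 2 of these counts. Genes at least 2-fold lower in TAFH-deleted rescue against knockout numbered 2, with 0 under quantile normalization and 0 to 4 without 1 library, and against full-length rescue 2, with 1 to 4. The shares of all genes at least 2-fold different under these alternatives were not counted.

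Of 500 other values for 32 differences of single genes, 440 kept direction and side of the threshold, 50 passed it anew with the same sign and 10 changed sign. Those 10 include Gas1 against knockout, and Cdon and Gas1 against full-length rescue, without TAFH-deleted clone 2, which leaves 1 library on that side. Leaving out 1 library moved Gli3 between -0.01 and 0.05 in knockout against control. In TAFH-deleted rescue against knockout it moved Cdon between -1.43 and 0.06, Gas1 between -0.75 and 0.56 and Gli3 between -0.05 and 0.14. In TAFH-deleted against full-length rescue it moved Cdon between -1.16 and 0.33, Gas1 between -0.94 and 0.37 and Gli3 between -0.09 and 0.10, the last also below 0 without full-length clone 2 (-0.03). There quantile normalization gave 0.07 for Gli1 and -0.02 for Gli3. Cdon and Gas1 changed sign without TAFH-deleted clone 2, and Gli3 without TAFH-deleted clone 1 or, in knockout against control, without control replicate 1. The cause was not tested. Depth limits Gli1 in knockout, at 13 and 27 fragments, and Hhip everywhere.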
